A study of Homo sapiens with 4 samples.

Results

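The 19q13.41 zinc finger cluster is a run of Krüppel-type zinc finger genes on the long arm of chromosome 19 that reaches into 19q13.42. Here it was taken as 37 named genes, from ZNF577 at its start to ZNF331 at its end, chosen by gene family and position and not by their signal. Of these, 35 had a probe set that names them alone, among 18417 genes measured in all. RNA was measured on 4 Affymetrix arrays, 2 of MV4-11 and 2 of MV4-11R. MV4-11 is a human acute myeloid leukaemia line, drug-sensitive per the labels and given as high in the histone methyltransferase EZH2. MV4-11R is its drug-resistant derivative, grown for 3 months in rising concentrations of the tyrosine kinase inhibitor PKC412 and given as low in EZH2. The study asked about resistance to several drugs in cells that had lost EZH2. The labels do not say whether MV4-11R was 1 clone, whether the inhibitor was present at harvest, or whether replicate arrays came from separate cultures. So a p-value here reflects only how far these arrays vary, and that variation may be technical.

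Genes of this family encode proteins with a row of C2H2 zinc fingers that read DNA and, in most of them, a KRAB domain that binds the co-repressor TRIM28. TRIM28 in turn brings the histone methyltransferase SETDB1 and HP1 proteins, and many of the DNA targets are transposable elements. Clusters of such genes arose by repeated tandem duplication, so neighbours are often close copies of each other. As a result probes for one copy can pick up RNA of another, and the size of a difference for a single copy is uncertain.

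The lines and arrays were checked first. The MV4-11 arrays correlated with each other at r = 0.994 and the MV4-11R arrays at 0.993, taken over genes, which are no independent replicates. EZH2 RNA read 9.75 and 9.74 in MV4-11 and 9.90 and 9.29 in MV4-11R, which overlap, so the labelled difference was not seen in RNA (difference -0.14, SE 0.20, adjusted p = 0.734). Levels are log2 signal, and as each probe set has its own response they are not compared between genes. Background was gauged by the 95th percentile of 341 olfactory receptor genes, 6.26, called the background guide. All 8 measured myeloid markers of 9 listed had line means above that guide in both lines (7.27 to 12.45), and PTPRC, LYZ and FLT3 fell. Of 10 measured markers of lymphoid, erythroid, epithelial and fibroblast cells among 12 listed, line means ran from 4.38 to 11.33, and CD3E, CD3D, MS4A1, HBB and EPCAM were at or below the guide in both lines. The other 5 (NKG7, CD79A, KRT8, COL1A1 and COL1A2) were above it, and NKG7 rose. The part of other cells in the results was not tested, and in RNA from whole cultures fewer cells of a type and less RNA per cell cannot be told apart.

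Members of the cluster moved in both directions in MV4-11R. Higher were ZNF577, ZNF649, ZNF616, ZNF480, ZNF528, ZNF701 and ZNF83, by 1.52-fold to 3.69-fold. Lower were ZNF468, ZNF160 and ZNF845, by 1.64-fold to 2.53-fold. The words rose and fell are kept for an adjusted p under 0.05 in limma's test over all 18417 genes, which 15.1% of them passed, 7.92% upward and 7.13% downward. Of the 35 measured members 7 rose, 3 (8.57%) fell, and the remaining 25 were short of the threshold. The share that fell is near that of all genes, and it mixes dim and bright members. Of the 15 members at or below the guide in both lines 0 fell (1.12% of all such genes did), and of the 20 above it in a line 3 fell, where 9.70% of all such genes fell. By the same split 2 of the 15 rose (1.05% of all such genes did), and 5 of the 20 rose, where 10.9% of all such genes rose. Without MV4-11 replicate 1 there were 4 rises. The median difference of the members, MV4-11R minus MV4-11, was 0.17, against 0.01 over all genes. It was 0.30 when the dimmest 25% of genes were left out.

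**Figure D1:**
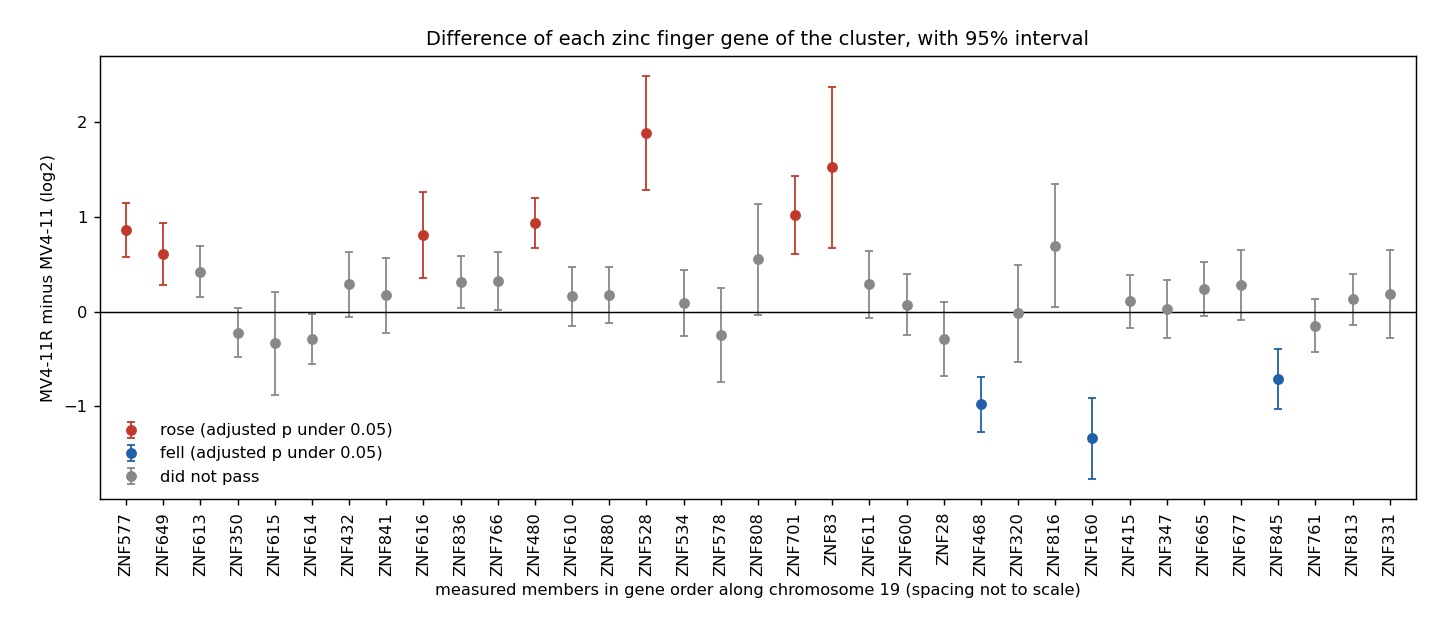
Difference between the lines (MV4-11R minus MV4-11, log2 units) for the 35 measured members in gene order, with 95% intervals; spacing is not to scale. The 7 rises (red) lie at or before ZNF83 and the 3 falls (blue) at ZNF468, ZNF160 and ZNF845, after it; centring on chromosome 19 added falls at ZNF350, ZNF614 and ZNF28, and leaving out MV4-11R replicate 1 added a rise at ZNF816.

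ZNF528 had the largest fitted difference among the rises, a rank that is limited by MV4-11 readings below background for it, ZNF83 and ZNF701. It read 4.88 and 5.15 on the MV4-11 arrays and 7.26 and 6.54 on the MV4-11R arrays. The lines were well apart, although the MV4-11R arrays differed from each other. The difference was 1.88 (SE 0.25, adjusted p = 0.00721), or 3.69-fold. In MV4-11 it read below the background guide and in MV4-11R above it, so the fold is not exact.

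ZNF83 and its neighbour ZNF701 both rose from readings below the guide. ZNF83 read 4.30 and 4.15 in MV4-11 and 6.32 and 5.18 in MV4-11R, with a difference of 1.52 (SE 0.35, adjusted p = 0.0365). Its MV4-11R arrays lay far apart, the first being the higher. The difference was 0.95 without MV4-11R replicate 1 (adjusted p = 0.0174) and 2.09 without MV4-11R replicate 2. ZNF83 no longer passed when MV4-11 replicate 1 (adjusted p = 0.0673) or MV4-11 replicate 2 (0.0844) was left out, and its adjusted p ran from 0.00187 to 0.107 over the alternatives. ZNF701 read 4.75 and 5.06 in MV4-11 and 6.10 and 5.74 in MV4-11R. Both MV4-11R arrays of ZNF701 were higher than both MV4-11 arrays, with a difference of 1.02 (SE 0.17, adjusted p = 0.0145). It did not pass with every probe set tested (0.0546), in a range of 0.00720 to 0.0546. Line means of both genes stayed under 6.26 in MV4-11R too, at 5.75 for ZNF83 and 5.92 for ZNF701, so their folds are not exact either.

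ZNF480, far above the background guide in both lines, rose with little spread. Its arrays read 9.20 and 9.27 in MV4-11 and 10.21 and 10.14 in MV4-11R. The difference was 0.94 (SE 0.11, adjusted p = 0.00492), or 1.91-fold, and the replicates of each line lay far closer together than the lines. This was the lowest adjusted p in the cluster.

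At the start of the cluster the adjacent genes ZNF577 and ZNF649 rose together. ZNF577, whose promoter is known to gain DNA methylation in several cancers, read 6.59 and 6.77 in MV4-11 and 7.51 and 7.57 in MV4-11R, 0.86 higher (SE 0.12, adjusted p = 0.00841). ZNF649, described as a transcriptional repressor, read 7.48 and 7.77 in MV4-11 and 8.21 and 8.26 in MV4-11R, 0.61 higher (SE 0.13, adjusted p = 0.0323). The arrays of the lines did not overlap for either gene. Leaving out MV4-11 replicate 1 took the adjusted p of ZNF649 to 0.135, leaving out MV4-11R replicate 1 to 0.0798 and MV4-11R replicate 2 to 0.0847, in a range of 0.0205 to 0.135.

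ZNF616 was the only member with more than 1 probe set of its own. The brighter one read 6.78 and 7.25 in MV4-11 and 7.69 and 7.95 in MV4-11R, 0.81 higher (SE 0.19, adjusted p = 0.0368). The dimmer one read 6.19 and 6.43 in MV4-11 and 6.40 and 6.97 in MV4-11R, overlapping between the lines, with a difference of 0.37. With the mean of both, the ZNF616 difference was 0.59 (adjusted p = 0.0931) and did not pass. Leaving out MV4-11 replicate 1 gave 0.109, MV4-11R replicate 1 gave 0.0537 and MV4-11R replicate 2 gave 0.102, in a range of adjusted p from 0.00923 to 0.109.

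ZNF160 had the largest fall. This KRAB zinc finger gene, reported to repress the endotoxin receptor gene TLR4, read 8.84 and 9.13 in MV4-11 and 7.44 and 7.85 in MV4-11R. Every MV4-11R array was lower, and the difference was -1.34 (SE 0.18, adjusted p = 0.00751), a fall of 2.53-fold. Both lines read above the background guide.

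ZNF468 fell less far than ZNF160, at a lower adjusted p. It read 8.01 and 8.17 in MV4-11 and 7.04 and 7.17 in MV4-11R, a difference of -0.98 (SE 0.12, adjusted p = 0.00572) or 1.97-fold. The smallest of the falls was that of ZNF845, which read 8.33 and 8.27 in MV4-11 and 7.45 and 7.71 in MV4-11R, a difference of -0.72 (SE 0.13, adjusted p = 0.0184). Arrays of the lines did not overlap for either gene. ZNF845 did not pass when MV4-11 replicate 1 (adjusted p = 0.0690), MV4-11 replicate 2 (0.0525) or MV4-11R replicate 1 (0.0603) was left out, in a range of 0.00350 to 0.0690.

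**Figure D2:**
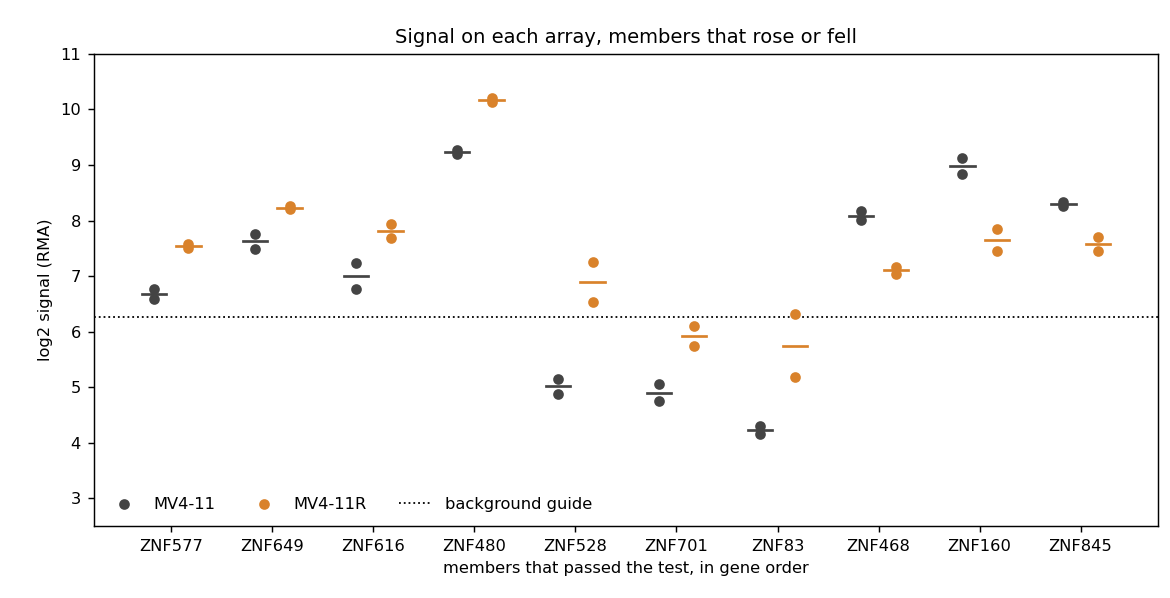
Log2 signal of the 10 members that passed the test, in gene order, on each array (points) with the mean of each line (bars); the dotted line is the background guide at 6.26. No gene has overlapping lines, and ZNF528, ZNF701 and ZNF83 start below the guide in MV4-11.

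The sequence just before the transcription start was compared between members, because copies of a promoter could be set beside the direction in which each gene moved. RefSeq windows of 300 bases (250 before and 50 after the start, GRCh38.p14) matched 31 of the 37 members. For genes with several windows the outermost start was used. The last 120 bases before each start were slid along the 300 bases of every other member without gaps, and the best position was kept. The median identity over 465 pairs was 43.3%. A set of 6 genes stood out by sequence alone, ZNF808, ZNF701, ZNF83, ZNF468, ZNF845 and ZNF761, whose 15 pairs were 79.2% to 87.5% identical, while no other pair passed 68.3%. ZNF83 matched the other members of the set at a shift of 10 bases, and those matched each other with none. They are printed 5′ to 3′ on the gene's strand with each CpG in capitals, since CpG is the site of DNA methylation.
ZNF808, chr19:52527548-52527667, plus strand: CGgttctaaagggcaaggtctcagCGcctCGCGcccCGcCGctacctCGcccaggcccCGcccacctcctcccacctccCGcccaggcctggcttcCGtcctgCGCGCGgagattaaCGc
ZNF701, chr19:52570167-52570286, plus strand: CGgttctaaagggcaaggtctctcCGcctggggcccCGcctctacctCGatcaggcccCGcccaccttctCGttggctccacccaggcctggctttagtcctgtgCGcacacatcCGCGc
ZNF83, chr19:52690497-52690616, minus strand: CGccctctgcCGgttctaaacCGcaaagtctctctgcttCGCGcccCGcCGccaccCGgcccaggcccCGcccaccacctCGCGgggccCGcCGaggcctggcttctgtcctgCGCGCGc
ZNF468, chr19:52857620-52857739, minus strand: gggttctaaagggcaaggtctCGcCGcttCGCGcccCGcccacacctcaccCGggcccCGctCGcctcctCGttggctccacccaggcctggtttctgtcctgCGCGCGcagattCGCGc
ZNF845, chr19:53333629-53333748, plus strand: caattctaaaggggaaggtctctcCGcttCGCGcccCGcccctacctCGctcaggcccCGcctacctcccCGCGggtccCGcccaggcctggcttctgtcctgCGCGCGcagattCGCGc
ZNF761, chr19:53431864-53431983, plus strand: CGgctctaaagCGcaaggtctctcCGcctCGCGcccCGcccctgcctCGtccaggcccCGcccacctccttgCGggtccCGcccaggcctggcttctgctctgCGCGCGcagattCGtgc

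These like windows went with unlike directions in some pairs and with the same direction in others. ZNF701 and ZNF83 rose, ZNF468 and ZNF845 fell, and ZNF808 and ZNF761 did not pass. The windows of ZNF701 and ZNF468 were 81.7% identical, and their differences were 1.02 and -0.98. Opposite too were ZNF701 and ZNF845 (81.7%), ZNF83 and ZNF845 (85.0%), and ZNF83 and ZNF468 (81.7%). By contrast ZNF468 and ZNF845 (83.3%) both fell, and ZNF701 and ZNF83 (79.2%) both rose. Line means of ZNF701 and ZNF83 were below the background guide in both lines. ZNF701 had 9 CpG in its printed bases, ZNF83 had 16 and each of the other windows of the set had 14. Which of these starts the cells use was not measured.

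ZNF528 and ZNF160, which have the largest fitted differences upward and downward, lie outside that set, and their windows are shown for contrast. ZNF528 had 15 CpG and ZNF160 had 14.
ZNF528 (rose), chr19:52397729-52397848, plus strand: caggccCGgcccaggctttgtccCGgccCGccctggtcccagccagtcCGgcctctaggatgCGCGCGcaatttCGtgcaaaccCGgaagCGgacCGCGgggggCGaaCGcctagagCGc
ZNF160 (fell), chr19:53103423-53103542, minus strand: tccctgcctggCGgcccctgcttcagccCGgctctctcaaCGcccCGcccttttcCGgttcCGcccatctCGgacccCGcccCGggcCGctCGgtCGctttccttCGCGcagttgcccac

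Over the whole 300-base window the 31 members held a median of 25 CpG (14 to 30), against 13 over all 27305 genes of the table and 19 over 179 other ZNF genes of chromosome 19. Across the 29 members with both values, the number of CpG and the difference correlated at r = 0.01, a description over genes that share arrays and sequence. Short motifs were searched on both strands and may overlap each other. The ETS motif CCGGAAG was in 19 of 31 member windows (61.3%), against 10.6% of all windows and 40.8% of those of the other chromosome 19 ZNF genes. The SP1 motif GGGCGG was in 83.9%, against 44.5% and 66.5%. Members held the YY1 motif AAGATGGC in 12.9%, against 3.01% of all windows and 5.03% of those of the other chromosome 19 ZNF genes. The NRF1 motif was in 1 member window (3.23%), against 1.37% and 2.79%. The E-box CACGTG was in 3.23%, against 7.41% and 3.91%, and CACCCC in 22.6%, against 28.0% and 30.7%. Of the members that rose and have a window, 2 of 5 held the ETS motif, and of those that fell, 2 of 3. A match is a description of the letters and not a bound site.

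The 25 members that did not pass had differences from -0.34 (ZNF615) to 0.69 (ZNF816), with 18 above 0 and 7 below. For 5 of them the 95% interval left out 0, although the adjusted p did not pass. These were ZNF613 at 0.42 (0.15 to 0.69), ZNF614 at -0.29 (-0.55 to -0.02), ZNF836 at 0.31 (0.03 to 0.59), ZNF766 at 0.32 (0.01 to 0.63) and ZNF816 at 0.69 (0.04 to 1.34). A p that misses the threshold does not show that a gene was the same in both lines.

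Of the 6 members with the highest array signal, a rank of probe sets and not of RNA amounts, 4 did not pass. ZNF766 read 9.20 and 9.33 in MV4-11 and 9.48 and 9.69 in MV4-11R (adjusted p = 0.158). ZNF350, known as ZBRK1, a repressor that works with BRCA1, read 8.88 and 8.94 in MV4-11 and 8.67 and 8.72 in MV4-11R, a difference of -0.22 (SE 0.11, adjusted p = 0.242). For both genes the arrays of the lines did not overlap, and the gap between them was small. ZNF808, whose loss in humans causes a failure of pancreas development, read 7.65 and 8.24 in MV4-11 and 8.26 and 8.73 in MV4-11R, 0.55 higher on average (SE 0.24, adjusted p = 0.198). With 1 array left out the ZNF808 difference ran from 0.26 (without MV4-11 replicate 1) to 0.85 (without MV4-11 replicate 2), and it passed with the replicate number as a block (0.0218), in a range of 0.0218 to 0.628. ZNF613 read 7.73 and 7.81 in MV4-11 and 8.24 and 8.14 in MV4-11R (adjusted p = 0.0558), and passed once the dimmest 25% of genes was left out (0.0451, in a range of 0.0451 to 0.259).

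ZNF331, an imprinted gene in some tissues that closes the cluster, read 7.18 and 7.04 in MV4-11 and 7.57 and 7.02 in MV4-11R, so the lines overlapped (difference 0.19, SE 0.19, adjusted p = 0.621). ZNF816 read 6.85 and 7.27 in MV4-11 and 7.38 and 8.12 in MV4-11R (adjusted p = 0.150), and passed without MV4-11R replicate 1 (0.0307, in a range of 0.0189 to 0.434). The lower MV4-11R array of ZNF816 lay only just above the higher MV4-11 array. The remaining bright members were ZNF432, at a difference of 0.29 (-0.05 to 0.63), ZNF28 at -0.29 (-0.68 to 0.10) and ZNF761 at -0.15 (-0.43 to 0.13), and their intervals held 0. Another 13 members read at or below the background guide in both lines and did not pass, with line means of 3.35 to 5.69 and differences of -0.25 to 0.29. Among these dim genes is ZNF677, which is silenced by methylation in lung cancer, at 3.83 and 4.20 in MV4-11 and 4.35 and 4.23 in MV4-11R. The others are ZNF841, ZNF610, ZNF880, ZNF534, ZNF578, ZNF611, ZNF600, ZNF320, ZNF415, ZNF347, ZNF665 and ZNF813. At such levels RMA compresses differences, and changes of these genes may not be measurable.

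In 20 members both MV4-11R arrays lay above both MV4-11 arrays, and in 7 both lay below. Over all genes 55.6% did one or the other, 29.6% higher and 26.0% lower.

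Along the cluster the rises came before the falls as processed here, and this order did not hold under every alternative. In the order of all 37 members the rises lay at positions 1 to 20 and the falls at positions 24 to 32. The first 12 measured members, ZNF577 to ZNF480, held 4 rises and 0 falls with a median difference of 0.32 (at an unadjusted p under 0.05 in limma's test, 7 higher and 1 lower). The next 12, ZNF610 to ZNF468, held 3 rises and 1 fall with a median of 0.17. In the last 11, ZNF320 to ZNF331, there were 0 rises and 2 falls with a median of 0.11 (at an unadjusted p under 0.05 in limma's test, 1 higher and 2 lower). Members at or below the background guide in both lines were spread unevenly. In the first 12 only ZNF841 was so dim, and in the next 12 ZNF610, ZNF880, ZNF534, ZNF578, ZNF701, ZNF83, ZNF611 and ZNF600 were. In the last 11 these were ZNF320, ZNF415, ZNF347, ZNF665, ZNF677 and ZNF813. The groups thus differed in how far changes could be measured, and the part of this in the order was not tested. Without MV4-11R replicate 1, or with the replicate number as a block (adjusted p = 0.0189), ZNF816 at position 26 rose, after the fall of ZNF468. With centring on chromosome 19, ZNF350 at position 4 and ZNF614 at position 6 fell. The order was not tested, and neighbours that are close copies may share probe sequence. Of 34 neighbouring pairs of measured members 24 differed from MV4-11 in the same direction, and the differences of neighbours correlated at r = 0.19. As 25 of the 35 members were above 0 and 10 below, many pairs would share a direction in any order. The longest run of 1 direction was of 10 members, ZNF432 to ZNF534, all higher in MV4-11R, of which 3 rose (ZNF616, ZNF480 and ZNF528).

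Other genes inside and around the cluster were measured too, among them the zinc finger pseudogenes ZNF137P, ZNF702P and ZNF818P. Of 10 measured genes between ZNF577 and ZNF331 that are not members, 0 rose and 0 fell by limma (at an unadjusted p under 0.05, 0 higher and 1 lower), with a median difference of -0.02. Only PPP2R1A, FAM90A27P and TPM3P9 of these read above the background guide in both lines, and changes of the others may not be measurable. The phosphatase subunit gene PPP2R1A, which lies between ZNF836 and ZNF766, had a difference of 0.09 (SE 0.12, adjusted p = 0.717) at a high level. The largest difference among the 10 was that of the vomeronasal receptor gene VN1R2, at -0.46 (SE 0.19, adjusted p = 0.170), with both lines under the guide. Without MV4-11 replicate 1 it was -0.20, and it passed without MV4-11 replicate 2 (-0.72, adjusted p = 0.0473) and with centring on chromosome 19 (0.0460), in a range of 0.0460 to 0.599. Of the 20 measured genes before the cluster 3 rose and 1 fell, with a median of 0.02, and of the 20 after it 2 rose and 0 fell (at an unadjusted p under 0.05 in limma's test, 6 higher and 2 lower), with a median of 0.10.

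Chromosome 19 as a whole also read higher in MV4-11R. Its 186 other ZNF genes had a median difference of 0.27, with 45 rises (24.2%) and 4 falls (2.15%). Of these, the 141 above the guide in a line had a median of 0.32, and the 20 members above it in a line 0.30. The 1087 genes of chromosome 19 that are not ZNF genes had a median of 0.11, with 156 rises (14.4%) and 21 falls (1.93%). The 218 ZNF genes of other chromosomes had a median of 0.08, with 10 rises (4.59%) and 9 falls (4.13%). Falls thus made up 8.57% of the cluster against 2.15% of the other chromosome 19 ZNF genes, which are 3 genes and 4 genes, and the difference was not tested. When arrays were centred on the chromosome 19 genes outside the cluster, which shifts the median of all genes to -0.21, the members had 6 rises and 6 falls and a median of -0.05, so that rises were 50% of the calls in place of 70%. The falls then included ZNF350, ZNF614 and ZNF28, and ZNF649 no longer passed. This centring uses chromosome 19 medians of level, and it takes off more than the median of the genes' own differences (0.13). The number of copies of chromosome 19 was not measured here.

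**Figure D3:**
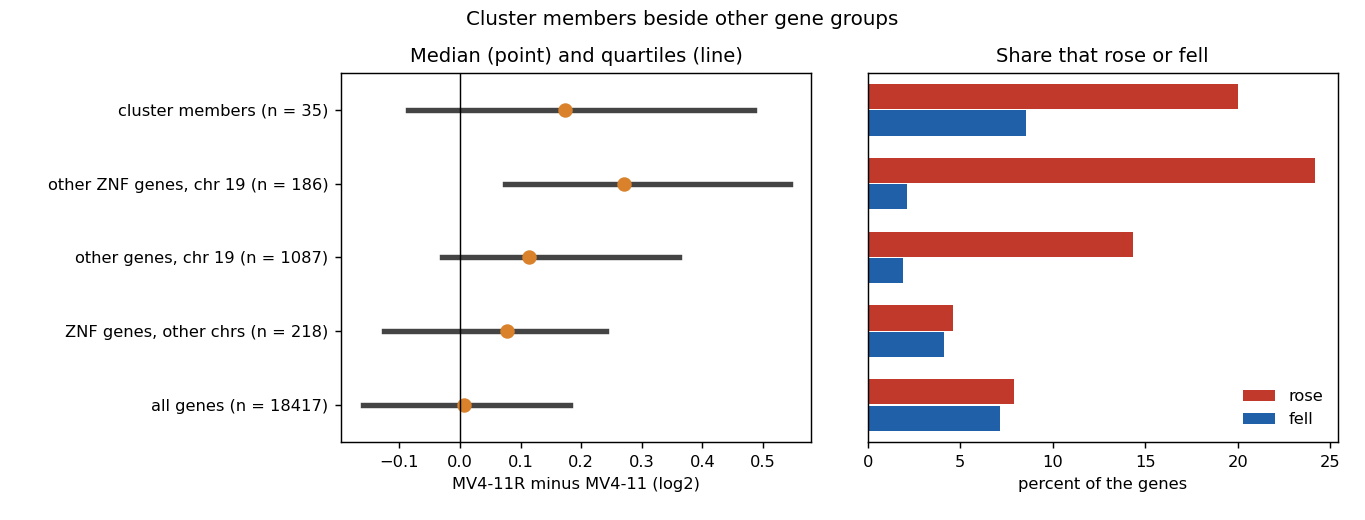
Left, median (point) and quartiles (line) of the difference between the lines in log2 units for the cluster and 4 other groups of genes; right, percent of each group that rose or fell. Members had a median of 0.17, between 0.27 for the other chromosome 19 ZNF genes and 0.01 for all genes, and 8.57% of members fell.

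Copies that cannot be told apart were read together. ZNF525 and ZNF765 have no probe set of their own. They share one with ZNF761 and ZNF845, which read 10.95 and 10.93 in MV4-11 and 10.75 and 10.92 in MV4-11R (difference -0.11, adjusted p = 0.713 over all 33297 probe sets). A probe set that lists 10 members, ZNF468, ZNF701, ZNF83, ZNF845, ZNF28, ZNF320, ZNF813, ZNF761, ZNF525 and ZNF765, read 8.62 and 8.64 in MV4-11 and 8.38 and 8.29 in MV4-11R (difference -0.30, adjusted p = 0.217). The one that lists 9 of these, without ZNF468, read 10.67 and 10.82 in MV4-11 and 10.66 and 10.66 in MV4-11R (difference -0.09, adjusted p = 0.768). None of these sums passed in limma's test over all 33297 probe sets. In the test over genes, 4 of the listed genes, ZNF468, ZNF701, ZNF83 and ZNF845, passed in opposite directions on probe sets of their own. Over all 33297 probe sets only ZNF468 of these 4 passed (adjusted p = 0.0291). There ZNF701 (0.0546), ZNF845 (0.0604) and ZNF83 (0.107) did not pass, so opposite calls beside the sums were not seen at 1 common threshold. The 27 members not listed are on no shared probe set.

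The co-repressor list held 23 measured genes: TRIM28, other genes of chromatin and DNA methylation, and the KRAB zinc finger genes ZFP57 and ZNF445. Among these 23 there was 1 rise and 1 fall (15.1% of all genes passed), and the median difference was 0.03. At an unadjusted p under 0.05 in limma's test 5 were higher and 4 lower. TRIM28, the co-repressor itself and also a gene of chromosome 19, read 11.40 and 11.30 in MV4-11 and 11.80 and 11.69 in MV4-11R, at a difference of 0.39 (SE 0.11, adjusted p = 0.0706). Among the alternatives it passed only with limma-trend, which lets the prior spread depend on level (adjusted p = 0.0359). Its adjusted p ran up to 0.349, with centring on chromosome 19, where the TRIM28 difference was 0.17. SETDB1, which methylates histone H3 at TRIM28 targets, had a difference of -0.17 (SE 0.12, adjusted p = 0.434). SMARCAD1, a chromatin remodeller that binds TRIM28, rose 1.72-fold from 8.14 and 7.94 to 8.92 and 8.72 (adjusted p = 0.0147). Leaving out MV4-11 replicate 2 gave 0.0578 for SMARCAD1 and leaving out MV4-11R replicate 1 gave 0.0514, in a range of 0.00775 to 0.0578. CHD3, a NuRD complex remodeller that binds TRIM28, fell 1.87-fold from 9.47 and 9.64 to 8.55 and 8.75 (adjusted p = 0.00932).

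**Figure D4:**
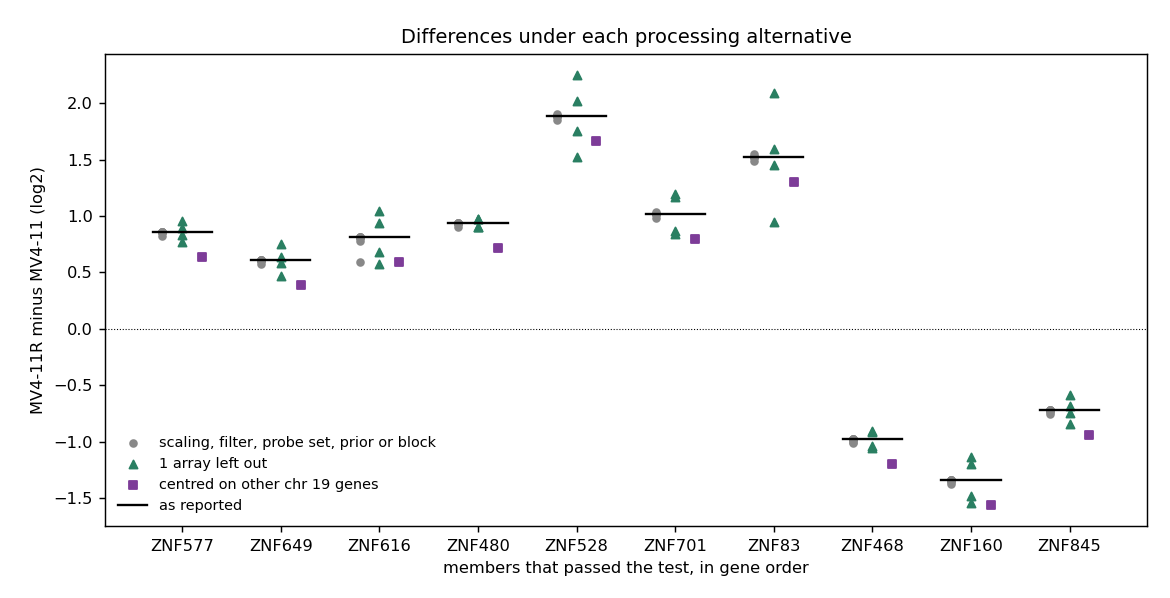
Difference between the lines (log2 units) for the 10 members that passed, as reported (bar) and under each processing alternative (points). All stay on their side of 0. Only array centring, quantile normalization, centring on other chromosome 19 genes and, for ZNF616, the mean of probe sets could have changed this. The points of ZNF83 spread most, from 0.95 to 2.09, and centring on other chromosome 19 genes (squares) moves every gene down.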

How the data were processed

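The deposited table holds log2 signal for 33297 probe sets on 4 arrays, made by the authors with RMA. The submitters' processing notes name Affymetrix Expression Console as the software. Its version and the genome build are not given in the sources used here, and the log2 scale was read from the values (array medians 6.75 to 6.78). RMA compresses differences of dim genes. Probe sets were named from the platform annotation: 19460 named 1 gene, 1754 several and 12083 were not listed. Symbols and gene order came from RefSeq (GRCh38.p14) by Entrez ID. For each gene the brightest probe set over the 4 arrays was kept, with no filter on level, leaving 18417 genes. The test was 2-sided, with limma 3.58.1 in R 4.3.3 (lmFit, then eBayes), no block, and p-values adjusted by Benjamini-Hochberg across all of them. Residual degrees of freedom were 2, rising to 6.06 with limma's prior. SE is limma's moderated standard error. Arrays give no molecule counts, and their number limits the precision.

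On simulated data (5 sets of 18417 genes, 200 of them changed) the test recovered 0.800% of changes of 0.5 log2 units. It recovered 67.6% at 1 log2 unit and 97.2% at 2. Far fewer genes were changed there than passed in the data (15.1%), which makes the adjusted threshold stricter. Noise was also drawn independently for each array, while same-numbered arrays deviated together in the data. So these shares do not give the recovery in the data. Members, gene lists and tests were chosen with earlier results of these data known. All members are named or counted. Values per array are given for members that passed, for the 6 brightest and for further members chosen after their values were seen. Of the co-repressor list, values are given for the genes that passed, with TRIM28 and SETDB1. Sliding the promoter windows was added, and PPP2R1A chosen, after values were seen. Alternatives were array centring, quantile normalization, centring on chromosome 19, a filter on dim genes, the mean of probe sets, tests of every probe set, limma-trend, leaving out each array and the replicate number as a block. Finger counts and protein identity were planned and not computed, since no protein sequences were used here.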

Additional observations from a re-analysis of the deposited data

How the results depend on the processing

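Directions of the 10 called members held under each of the 12 alternatives that gave them a value (ZNF701 and ZNF83 had none once dim genes were left out). Of these, 5 (ZNF577, ZNF480, ZNF528, ZNF468 and ZNF160) passed under all 12. Most of the alternatives could not change these directions. The filter, limma-trend, the block and tests of every probe set leave the difference as it was. Leaving out 1 array could not change a sign either, as the lines did not overlap for these genes. Only array centring, quantile normalization, centring on chromosome 19 and, for ZNF616, the mean of probe sets could. Testing every probe set fits limma's prior anew and adjusts over more features. There 755 probe sets rose and 750 fell, and 3 members rose and 2 fell. Centring on other chromosome 19 genes gave 825 rises and 3087 falls over all genes, and in the cluster 6 falls and a median of -0.049. Leaving out dim genes gave a median of 0.30. With 1 array left out, rises over all genes ran from 711 to 1239 and falls from 791 to 1240, rises in the cluster from 4 to 6, falls from 2 to 3 and the median from 0.13 to 0.24. Same-numbered arrays deviated together (r = 0.26 over all genes and 0.53 over the members), but 2 pairs with only a shared number do not establish a pairing. With the replicate block 9 members rose and 3 fell, ZNF808 (adjusted p = 0.0218) and ZNF816 (0.0189) being added, and 1926 genes rose and 1716 fell. Sign changes were of 10 members that had not passed. Centring on chromosome 19 gave -0.20 for ZNF347, -0.15 for ZNF600, -0.13 for ZNF534, -0.12 for ZNF415, -0.094 for ZNF813, -0.061 for ZNF610, -0.049 for ZNF841, -0.049 for ZNF880 and -0.037 for ZNF331. Median centring gave -0.010 for ZNF347, and quantile normalization 0.0045 for ZNF320. With 1 array left out, ZNF320 ran from -0.28 to 0.24, ZNF347 from -0.094 to 0.14, ZNF331 from -0.086 to 0.46, ZNF600 from -0.051 to 0.20, ZNF534 from -0.046 to 0.23, ZNF841 from -0.040 to 0.39 and EZH2 from -0.45 to 0.16. Why results moved under an alternative was not tested. Signal near background limits the dim members.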
